A study of Mus musculus with 16 samples.

Results

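Dense clusters of ATAC-seq peaks are stretches of the genome where many sites differed in accessibility between the non-NE and the NE cells of the same mouse small cell lung cancers. They were chosen by pooling the deposited list of peaks more opened and the list of peaks more closed in GFPhigh cells, sorting them, and chaining neighbours while the gap from the end of a peak to the start of the next was at most 12.5 kb. Chains with 15 or more peaks are the clusters. They are 131 of 35596 chains and hold 2381 of the 80367 listed peaks, or 2.96%. Tumors were induced in TKO;Hes1 GFP/+ mice, where TKO stands for deletion of floxed Rb, p53 and p130, and GFP is read out from an endogenous Hes1 allele. Both groups carry these same alleles. Mice received Ad-CMV-Cre by intratracheal instillation at 8 to 12 weeks of age, and the CMV promoter that drives Cre is not restricted to a lung cell type. Tumors were collected 6 to 7 months later and pooled within a mouse, so that a library does not stand for a single tumor. CD24-positive cells lacking CD45, CD31 and TER-119 were sorted as GFPhigh (non-NE) or GFPneg (NE), in 4 pairs from 3 mice of which 1 is a technical replicate, giving 8 libraries and 16 runs, 8 a group. Sorted cells were measured in bulk, so a site open in more cells and a site more open in each cell cannot be told apart.

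ATAC-seq uses the Tn5 transposase to insert adaptors where DNA is not covered by nucleosomes, so reads pile up at promoters and enhancers. Genes that specify a cell's identity often sit among many enhancers spaced over long stretches, and the chaining distance used here is the customary one for stitching such stretches. NE cells of the lung keep neuronal programs under factors such as Insm1, while Notch signaling through Hes1 represses those programs and is a feature of the non-NE state. Throughout, opened and closed describe a peak's accessibility in GFPhigh relative to GFPneg cells, as called by the authors. The signal of a peak is the authors' mean normalized count over all libraries. It has no SD or n, and it does not say in which group reads were more abundant.

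The sequences below show what individual members look like, as the central 200 bp of a peak on the plus strand of GRCm38 (mm10), taken from the RefSeq assembly, with annotated exons left out. Capitals mark short motif cores, searched on both strands: TEAD CATTCC, FOX TGTTTAC, AP-1 TGANTCA, NKX2 CAAGTG, NFI TTGGCA, RUNX TGTGGTT, GRHL AACCNGTT, RBPJ GTGGGAA and E-box CAGCTG. A match is a description of the letters and not a binding site, and 2 cores of different families can overlap. The first set comes from clusters of a single kind. In the Nfix, Adcy1 and Ralgapa2 clusters the member of highest signal is shown. The strongest member of the Cdc42ep1 cluster lies in an exon, so its strongest intronic or intergenic member was taken in its place, a choice made after the values were seen.
Nfix cluster, opened, chr8:84712327-84712526: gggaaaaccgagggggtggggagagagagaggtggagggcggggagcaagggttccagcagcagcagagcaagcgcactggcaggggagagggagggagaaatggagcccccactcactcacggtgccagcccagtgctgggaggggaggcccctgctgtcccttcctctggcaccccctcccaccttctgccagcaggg
Cdc42ep1 cluster, opened, chr15:78889524-78889715: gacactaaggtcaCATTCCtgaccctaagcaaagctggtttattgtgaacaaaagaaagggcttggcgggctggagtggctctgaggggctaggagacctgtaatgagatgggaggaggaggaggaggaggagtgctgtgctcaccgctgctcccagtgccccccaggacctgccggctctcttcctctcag
Adcy1 cluster, closed, chr11:7122359-7122558: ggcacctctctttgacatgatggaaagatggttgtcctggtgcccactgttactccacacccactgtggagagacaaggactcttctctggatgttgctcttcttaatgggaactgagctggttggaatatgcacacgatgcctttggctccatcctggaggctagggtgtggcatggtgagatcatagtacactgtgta
Ralgapa2 cluster, closed, chr2:146278596-146278795: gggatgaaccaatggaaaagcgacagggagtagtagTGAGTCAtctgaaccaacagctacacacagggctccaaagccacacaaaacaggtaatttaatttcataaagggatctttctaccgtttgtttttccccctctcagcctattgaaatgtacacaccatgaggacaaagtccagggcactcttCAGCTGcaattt

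The opened Nfix peak had a GC content of 68% and no core, and the closed Adcy1 peak had 50.5% and no core either. In the closed Ralgapa2 peak an AP-1 and an E-box core lay in a window of 44.5% GC. Its neighbouring gene with the nearest coding start is Insm1. The opened Cdc42ep1 peak held a TEAD core.

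Clusters that hold both kinds are represented by the strongest member of the Rybp cluster, which was opened.
Rybp cluster, opened, chr6:100069293-100069492: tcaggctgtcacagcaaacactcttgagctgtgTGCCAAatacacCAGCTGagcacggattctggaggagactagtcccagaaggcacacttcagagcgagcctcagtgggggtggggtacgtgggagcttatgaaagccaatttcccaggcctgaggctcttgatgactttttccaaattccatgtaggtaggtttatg

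This intergenic peak, member 4 of the 21, held an NFI and an E-box core at a GC content of 51.5%, and its next neighbour was closed.

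The last set was chosen after the values were seen and gives the strongest intronic or intergenic member of 4 clusters at genes of the lists used here.
Notch2 cluster, opened, chr3:98050575-98050774: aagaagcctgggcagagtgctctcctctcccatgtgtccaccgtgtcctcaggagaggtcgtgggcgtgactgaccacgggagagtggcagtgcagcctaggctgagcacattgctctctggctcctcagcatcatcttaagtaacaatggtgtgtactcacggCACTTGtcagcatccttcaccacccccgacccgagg
Maml3 cluster, closed, chr3:51798852-51799051: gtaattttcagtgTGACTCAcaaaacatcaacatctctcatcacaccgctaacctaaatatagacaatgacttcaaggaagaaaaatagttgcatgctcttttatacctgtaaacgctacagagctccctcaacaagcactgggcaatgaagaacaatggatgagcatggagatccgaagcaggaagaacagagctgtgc
Scgb1a1 cluster, opened, chr19:9107132-9107331: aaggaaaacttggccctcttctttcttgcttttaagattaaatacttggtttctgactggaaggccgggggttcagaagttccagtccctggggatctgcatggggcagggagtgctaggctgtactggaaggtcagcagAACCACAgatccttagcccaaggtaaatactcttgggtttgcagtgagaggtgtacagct
Egfr cluster, closed, chr11:16799559-16799758: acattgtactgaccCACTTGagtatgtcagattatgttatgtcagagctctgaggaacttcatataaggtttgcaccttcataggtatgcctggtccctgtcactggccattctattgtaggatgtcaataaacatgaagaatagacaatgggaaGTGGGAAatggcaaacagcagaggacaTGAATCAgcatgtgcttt

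The opened Notch2 member held an NKX2 core and the opened member 19 kb from Scgb1a1 a RUNX core. The closed Maml3 member held an AP-1 core, and the closed Egfr member held NKX2, RBPJ and AP-1 cores. The strongest intronic or intergenic member of the Runx1 cluster, picked in the same way but not printed, was opened with a signal of 390 and held no core.

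Opened peaks made up most of the clusters. Of the 2381 members, 1743 were opened and 638 closed, so 73.2% were opened (95% Wilson interval 71.4 to 74.95, which covers counting error only). Among all listed peaks 50.8% were opened and 49.2% closed. Because members were selected on the same comparison that called the peaks, these shares are a description and were not tested. Put the other way, 4.27% of the opened listed peaks and 1.61% of the closed ones lay in a dense cluster. Both kinds occurred together in 105 clusters (80.2%). Only opened peaks were found in 23 clusters and only closed peaks in 3. In 109 clusters the opened peaks were more numerous, in 21 the closed peaks, and in 1 they were equal in number. At least 5 peaks of each kind were present in 42 clusters. The median cluster was 81.8% opened, and leaving out 1 cluster at a time moved the pooled share between 72.8% and 74.3%.

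**Figure D1:**
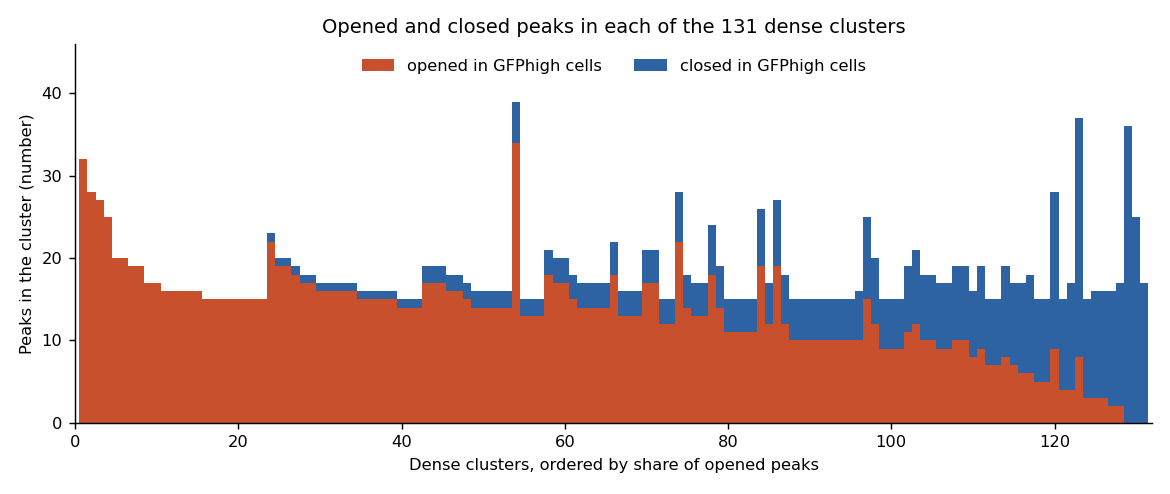
Number of opened (red) and closed (blue) peaks, stacked, in each of the 131 dense clusters (horizontal axis, ordered by the share of opened peaks; vertical axis, number of peaks). The 23 clusters at the left hold only opened peaks and the 3 at the right only closed peaks, and the 105 between them hold both.

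Clusters ranged from 15 to 39 peaks with a median of 17, and spanned 33.9 to 151 kb with a median of 67.3 kb. Their density was 1.72 to 5.01 peaks per 10 kb. Together they spanned 9.28 Mb, of which 746 kb lay in peaks, so the listed peaks covered only 3.92% to 14.7% of a cluster. Neighbouring members were separated by a median of 2895 bp (interquartile range 710 to 6226 bp), and 182 of the 2250 gaps were at most 100 bp. Neighbours in clusters that hold both kinds were of the same kind in 1269 of 1774 pairs (71.5%), where the makeup of each cluster alone gives 66.4%. Same-kind neighbours were thus somewhat more frequent than the makeup gives, and opened and closed peaks stayed interspersed. This was not tested. Just outside the limit, the 48 chains of 14 peaks had 672 peaks, of which 68.5% were opened, with a median signal of 45.2. Just inside, the 37 chains of 15 peaks had 555 peaks, of which 73.3% were opened, with a median signal of 45.2.

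The opened share was larger in longer chains. It was 40.4% for peaks that stood alone, 48.4% in chains of 2 to 4, 57.5% in chains of 5 to 9, 68.5% in chains of 10 to 14, 73.8% in chains of 15 to 19 and 71.6% in chains of 20 or more. The last 2 intervals overlap (71.7 to 75.9 and 68.1 to 74.9). Promoter peaks, with a centre within 1 kb of an annotated start site, went from 63.1% opened when single to 92.3% in chains of 15 to 19. Peaks over 1 kb from any start site went from 36.9% to 69.3% over the same classes, so the order was seen at promoters and away from them. The median signal of opened peaks was 34.2 for single peaks and 54.9 in chains of 15 to 19. Closed peaks stayed between 23.0 and 33.0 in every class.

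**Figure D2:**
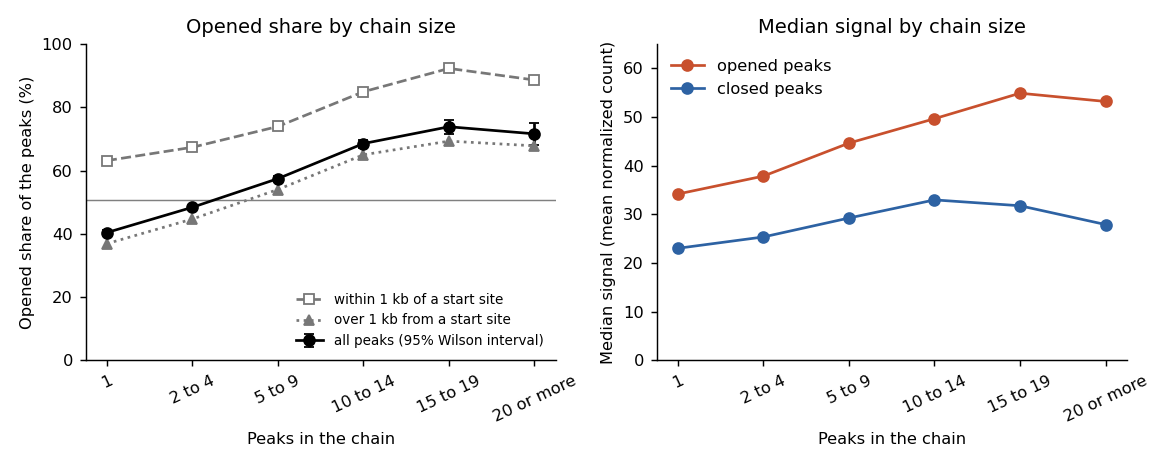
Left, the share of opened peaks (%) by the number of peaks in the chain, for all peaks with 95% Wilson intervals, for peaks within 1 kb of a start site and for peaks farther away; the grey line is the 50.8% of all listed peaks. Right, the median signal (mean normalized count) of opened and closed peaks; opened peaks lie above closed peaks in every class, with medians of 34.2 to 54.9 against 23.0 to 33.0.

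Members had a median signal of 45.6 against 31.5 for all listed peaks, and 63.5% of them exceeded that listed median. Opened members had a median of 54.5 and closed members 30.4. The corresponding medians of all listed peaks were 40.7 and 25.8. Members were not wider than the other listed peaks, with a median of 264 bp against 269 bp. Opened members, at 281 bp, were wider than closed members, at 241 bp, and 18.9% against 5.96% exceeded 500 bp. All listed peaks showed this difference too, with medians of 300 and 248 bp and 21.5% against 7.15% over 500 bp. The GC content of the central 200 bp had a median of 53.5% in members and 49.5% in all listed peaks. In 1745 windows placed in the gaps between members it was 48.5%, and in genome windows taken every 10 kb 41.5%. Opened members over 1 kb from a start site still had 53%, against 49% for the same class of all listed opened peaks.

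Introns held 1291 members (54.2%), intergenic sequence 521 (21.9%), promoters 460 (19.3%) and other exons 109 (4.58%). All listed peaks were less often intronic, at 48.2%, and more often intergenic, at 32.1%, and 16.1% were at promoters. Direction differed by class. At promoters 420 of the 460 members were opened (91.3%), against 70.4% of all listed promoter peaks. In introns the opened share was 65.5%, against 47.4% of all listed intronic peaks, and in intergenic sequence 78.5% against 46.1%. Closed members were mostly intronic, with 446 of 638 (69.9%), and 40 of them (6.27%) were at a promoter. Of all listed closed peaks 51.5% were intronic and 9.68% at a promoter.

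The number of protein-coding genes that start inside a cluster moved with its direction. The 17 clusters with 5 or more such genes were 95.2% opened, the 24 with 2 to 4 were 87.4% opened, the 52 with 1 were 71.3% opened and the 38 with none were 57.0% opened. No cluster with 2 or more coding starts held more closed than opened peaks. In contrast, 15 of the 40 clusters with at least 90% of their peaks inside the body of 1 coding gene were more closed than opened, and their members were 55.8% opened. A further 14 clusters overlapped no coding gene, and 75.1% of their 249 peaks were opened. In all, 234 of 21911 annotated coding genes (1.07%) started in a cluster.

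The largest cluster lay over Gse1, which encodes a coiled-coil protein found with histone deacetylase co-repressors, at chr8:120396883-120548009. It held 39 peaks over 151 kb, of which 34 were opened, and 12 were at promoters. The strongest opened member had a signal of 713 and its closed members had a median of 14.3. Next, with 37 peaks, was the Ttc7b cluster at chr12:100211089-100361704, at a gene for a scaffold of a phosphatidylinositol kinase complex. Of these, 29 were closed, and its 8 opened peaks included the 2 strongest, with signals of 345 and 169. The cluster at Zmiz1, a PIAS-like co-activator gene, had 28 peaks, of which 22 were opened and 24 lay in the gene body. The cluster at Fancc and 2010111I01Rik had 28 peaks, 19 of them closed, and contains the Mir23b, Mir27b and Mir24-1 genes. The strongest of its 9 opened peaks, with a signal of 464, was a promoter peak among neighbours that were mostly closed. The cluster at Irf2bp2, which encodes a transcriptional co-repressor, had 27 peaks of which 19 were opened, with 551 at its strongest promoter member. Only 1 of the 27 lay in the gene body, and 18 were intergenic. A cluster of 26 peaks at chr10:17510529-17633251, 19 of them opened, overlapped no coding gene, and the nearest coding start was that of Cited2, 89967 bp away.

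Among the 42 clusters that were at least 90% opened, the largest was over Nfix, at chr8:84686179-84822058. All 32 of its peaks were opened, with signals up to 224 and a median of 37.4. Nfix encodes a nuclear factor I transcription factor and covers 24 of the peaks, and Nacc1, Trmt1 and Lyl1 start in the same stretch. On chromosome 15, all 28 peaks of a cluster from Card10 to Sh3bp1 were opened, with a maximum of 469 at a start site of Gga1, a Golgi adaptor gene. The stronger promoter peak of Cdc42ep1, which encodes an effector of the CDC42 GTPase, had a signal of 259. Also on chromosome 15, all 27 peaks of a gene-dense cluster from Cpsf1 to Arhgap39 were opened, 20 of them at promoters, with a median signal of 85.0. Genes starting there include Foxh1, a SMAD partner, Slc39a4, a zinc transporter, and Vps28, an ESCRT component. The Thra cluster on chromosome 11 had 25 peaks, all opened, and holds the thyroid hormone receptor gene Thra, the circadian repressor gene Nr1d1 and the cytokine gene Csf3.

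Other opened clusters lay away from coding promoters. A cluster of 23 peaks at chr15:85600045-85687840, 22 of them opened, overlapped no coding gene and had the ligand gene Wnt7b 17.6 kb away. Its strongest opened member, at 901, was over 1 kb from any start site. All 20 peaks of a cluster at chr10:42069422-42150134 were opened, with Armc2 as the nearest coding gene at 51.0 kb and no annotated gene start within 1 kb of any member. The cluster at Fam129b had 20 peaks, 19 of them opened, with a median signal of 110. A cluster of 20 at Sdc4, which encodes the cell-surface proteoglycan syndecan 4, also had 19 opened peaks.

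Closed clusters were few, and all 3 with at least 90% closed peaks had no opened peak. Celf4, which encodes a neuronal RNA-binding protein, carried 36 closed peaks over 125 kb at chr18:25606815-25731704, all in its gene body, with a median signal of 28.2 and a maximum of 300.5. Adcy1, a calcium-stimulated adenylyl cyclase gene of neurons, had 25 closed peaks over 98.3 kb at chr11:7047302-7145561. The strongest had a signal of 322 and 2 of the peaks were at its promoter. At Ralgapa2, which encodes a subunit of a Ral GTPase-activating complex, 17 closed peaks spanned 62.8 kb at chr2:146247845-146310612. All 17 had Insm1, a zinc-finger transcription factor gene of neuroendocrine cells, as the nearest coding start, at 26.1 to 88.6 kb. Chained by themselves, closed peaks gave only these 3 clusters with 78 peaks, while opened peaks chained by themselves gave 44 clusters with 778 peaks.

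Many peaks of both kinds were found in the stretch near Rybp (12 opened and 9 closed), at Fancc and 2010111I01Rik (9 and 19), in the bodies of Tns3 (10 and 9) and Nav2 (10 and 9), and at Amotl1 (9 and 10, with 16 of the 19 peaks in its body). The Rybp cluster, 116 kb from that gene, had 15 runs over 21 peaks, and none was longer than 3. In Tns3, a focal adhesion gene, opened peaks reached 389 and closed peaks 241. In Amotl1, an angiomotin gene of the Hippo pathway, opened peaks reached 433 and closed peaks 392.

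**Figure D3:**
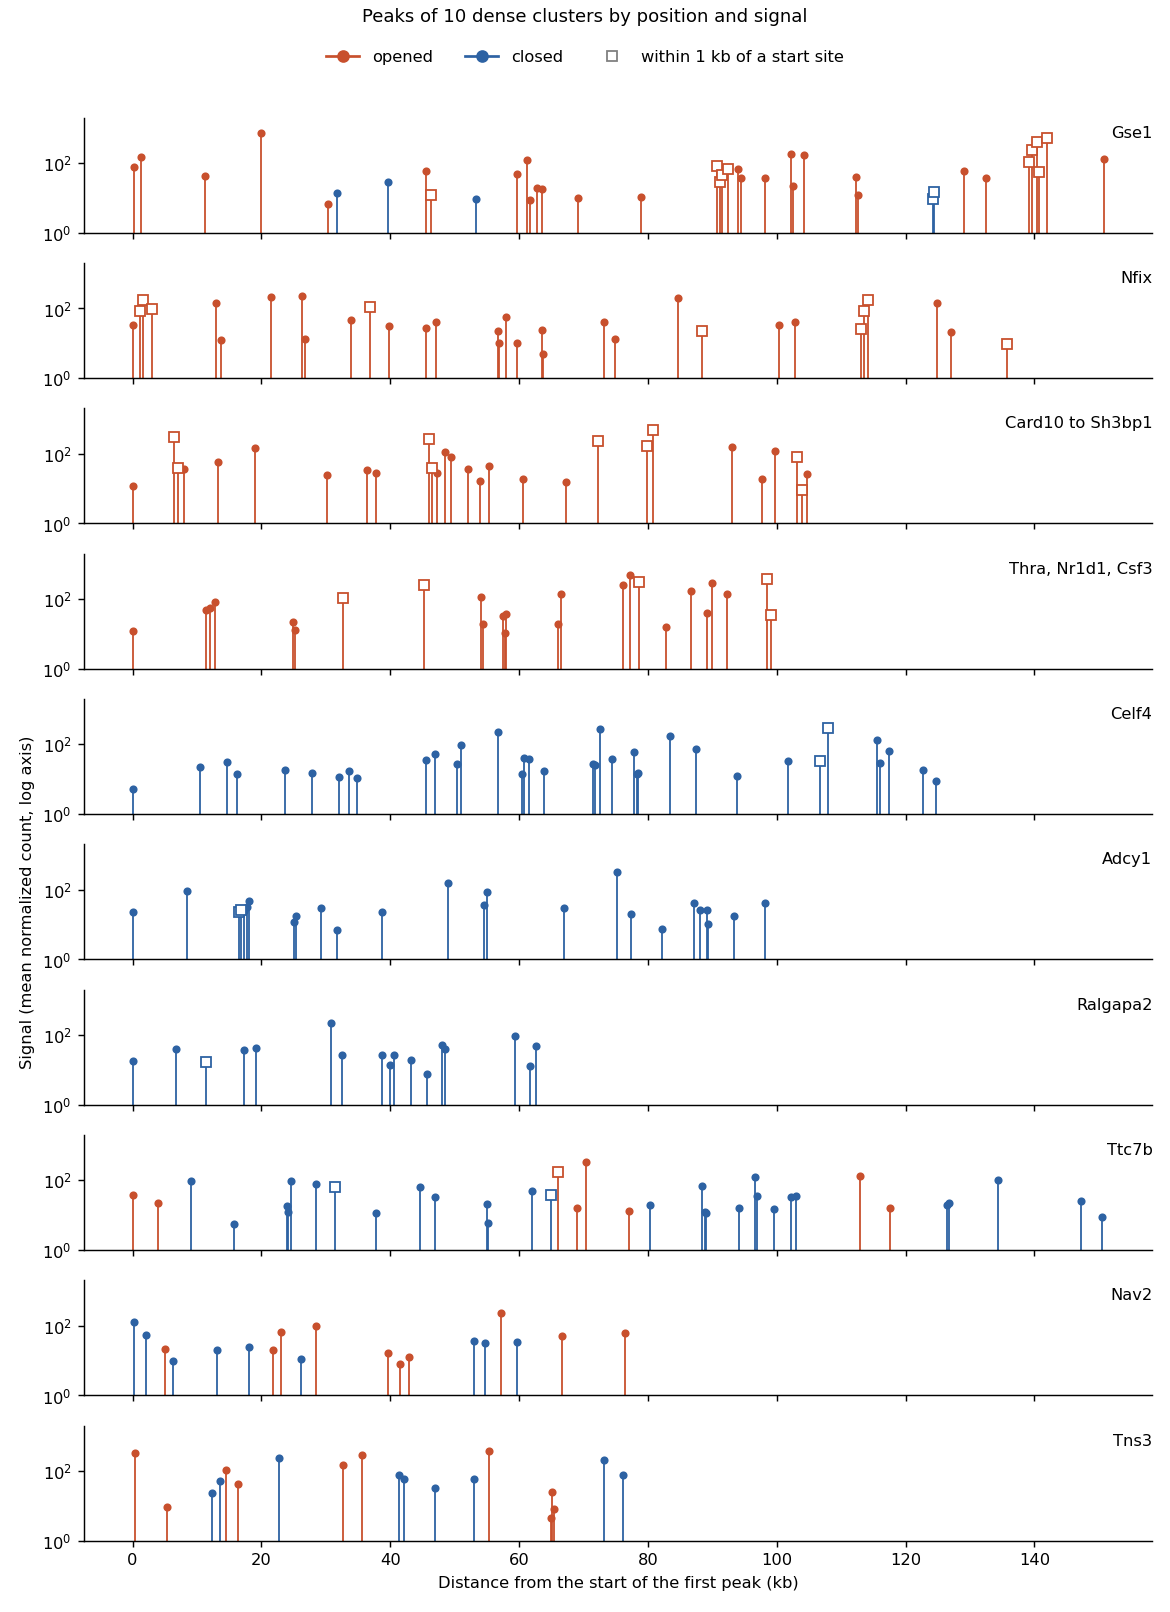
Peaks of 10 dense clusters, each placed by its distance from the start of the cluster's first peak (kb) and drawn to its signal (mean normalized count, log axis); red is opened, blue is closed and open squares lie within 1 kb of a start site. Nfix, the Card10 to Sh3bp1 stretch and Thra are red throughout, Celf4, Adcy1 and Ralgapa2 are blue throughout, and both colors occur along Ttc7b, Nav2 and Tns3, in long blocks at Ttc7b.

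Taken as whole groups, and named after their values were seen where the rule did not reach them, the clusters with more closed than opened peaks and those with opened peaks alone differed in where they lay. In the 21 clusters with more closed peaks, 15 had at least 90% of their peaks in the body of 1 coding gene, 11 held no coding start and none held 2 or more. They had 405 peaks with only 28 at promoters, of which 10 were opened. Besides those above, they include Fat1, an atypical cadherin gene (13 closed of 17), Etv6, an ETS-family repressor gene (13 of 16), Ppp3ca, the calcineurin catalytic subunit (10 of 15), Syne3, a nuclear envelope protein gene (10 of 15), Gab1, a receptor tyrosine kinase adaptor (11 of 17), and Mbp (10 of 17). The strongest member was an opened peak in 10 of these 21 clusters. Over all 131 clusters the strongest member was opened in 118 and at a promoter in 58.

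The 23 clusters with opened peaks alone had 424 peaks, of which 156 were at promoters, and 17 of them held 2 or more coding starts. Their median span was 50.2 kb, against 68.8 kb for the 21 with more closed peaks. The 109 clusters with more opened than closed peaks, which include these 23, had a median span of 66.8 kb. The shorter span thus belonged to clusters with opened peaks alone and not to mostly opened clusters in general. Of the 109, 25 had at least 90% of their peaks in the body of a coding gene. No coding start was held by 27 of them, and 2 or more by 41. The cluster at Bcl9l, a Wnt co-activator gene, had the highest density of all, with 19 peaks in 37.9 kb, 11 of them at promoters. The cluster at Rara, the retinoic acid receptor alpha gene, had 17 opened peaks with a median signal of 99.4. That holding the clock gene Per1 and Hes7 had 17 with a median of 92.9. Kdm6b, a histone H3K27 demethylase gene, shared 16 with a median of 90.5. Median signal by cluster ran from 12.4, in a Chn2 cluster that was mostly opened, to 119, in the gene-dense cluster at Cenpx. The strongest peak of a cluster ran from 74.9 at Maml3 to 1171 near Abhd11, beside Cldn3.

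Of 29 Notch pathway genes, Notch2, Maml3 and Rfng started in a dense cluster and the body of Rbpj overlapped another. Over all annotated coding genes, 1.07% started in a cluster. The Notch2 receptor gene lay in 21 peaks at chr3:98007110-98109218, 17 of them opened. Its promoter peak, with a signal of 430, was opened and so were members with signals of 263, 212 and 203. The 4 closed members had signals of 19.5 to 42.3. Other opened members were as weak, with signals down to 13.9. Maml3 encodes a Mastermind co-activator of the Notch complex. Of its 17 peaks 15 were closed, and all lay in the gene body, with signals of at most 74.9. None was within 1 kb of a start site, and the 1 listed peak at a Maml3 promoter, which was not a cluster member, was opened. The opened Maml3 members had signals of 42.6 and 10.7. The stretch at Rbpj, the DNA-binding partner of Notch, had 12 opened and 3 closed peaks, but only 4 of its 15 peaks fell in the Rbpj body and 14 had Cckar as the nearest coding start. Rfng, a Fringe glycosyltransferase gene, started in a gene-dense cluster with 16 opened peaks of 17.

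Scgb1a1 encodes the club cell secretory protein CC10. It started in a cluster of 16 peaks at chr19:9047643-9117589, 13 of them opened and 3 closed. The opened promoter peaks had signals of 263 and 68.4, and the strongest member, at 632, was an opened intergenic peak 19.3 kb away. The closed peaks, with signals of 109, 81.8 and 60.98, lay 14 to 22 kb from the start site on the side of Ahnak. Of the 12 club cell markers, Scgb1a1 and Lypd2 started in a cluster, against 1.07% of all coding genes. Lypd2 lay next to Psca, Slurp1 and Ly6d, in a cluster with 15 opened peaks of 17.

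Of 31 genes in the epithelial transcription and signalling list, Runx1, Grhl2, Cdh1 and Egfr started in a cluster, against 1.07% of all coding genes. The list is not of epithelial genes alone, since it also holds Vim, Zeb1 and Snai2. Runx1, a Runt-family transcription factor gene, had 18 opened and 3 closed peaks over 101 kb, all within its body. Opened members reached 390 and 386, the latter at a promoter, and the strongest closed member 203. The cluster at Grhl2, an epithelial grainyhead factor gene, had 13 opened and 2 closed peaks, of which 3 lay in the gene body. Its opened promoter peak had a signal of 424, and 1 closed listed peak also lay at a Grhl2 promoter. Cdh1, which encodes E-cadherin, had 11 opened and 4 closed peaks over 44.0 kb. The opened promoter peak had a signal of 338 and a closed peak 5 kb into the gene 255. Egfr, the receptor tyrosine kinase gene, was the reverse of Runx1, with 14 closed and 2 opened peaks. Its promoter peak, at 118, was opened and was the strongest member, while the closed peaks through the gene body had signals of 9.87 to 89.5.

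**Figure D4:**
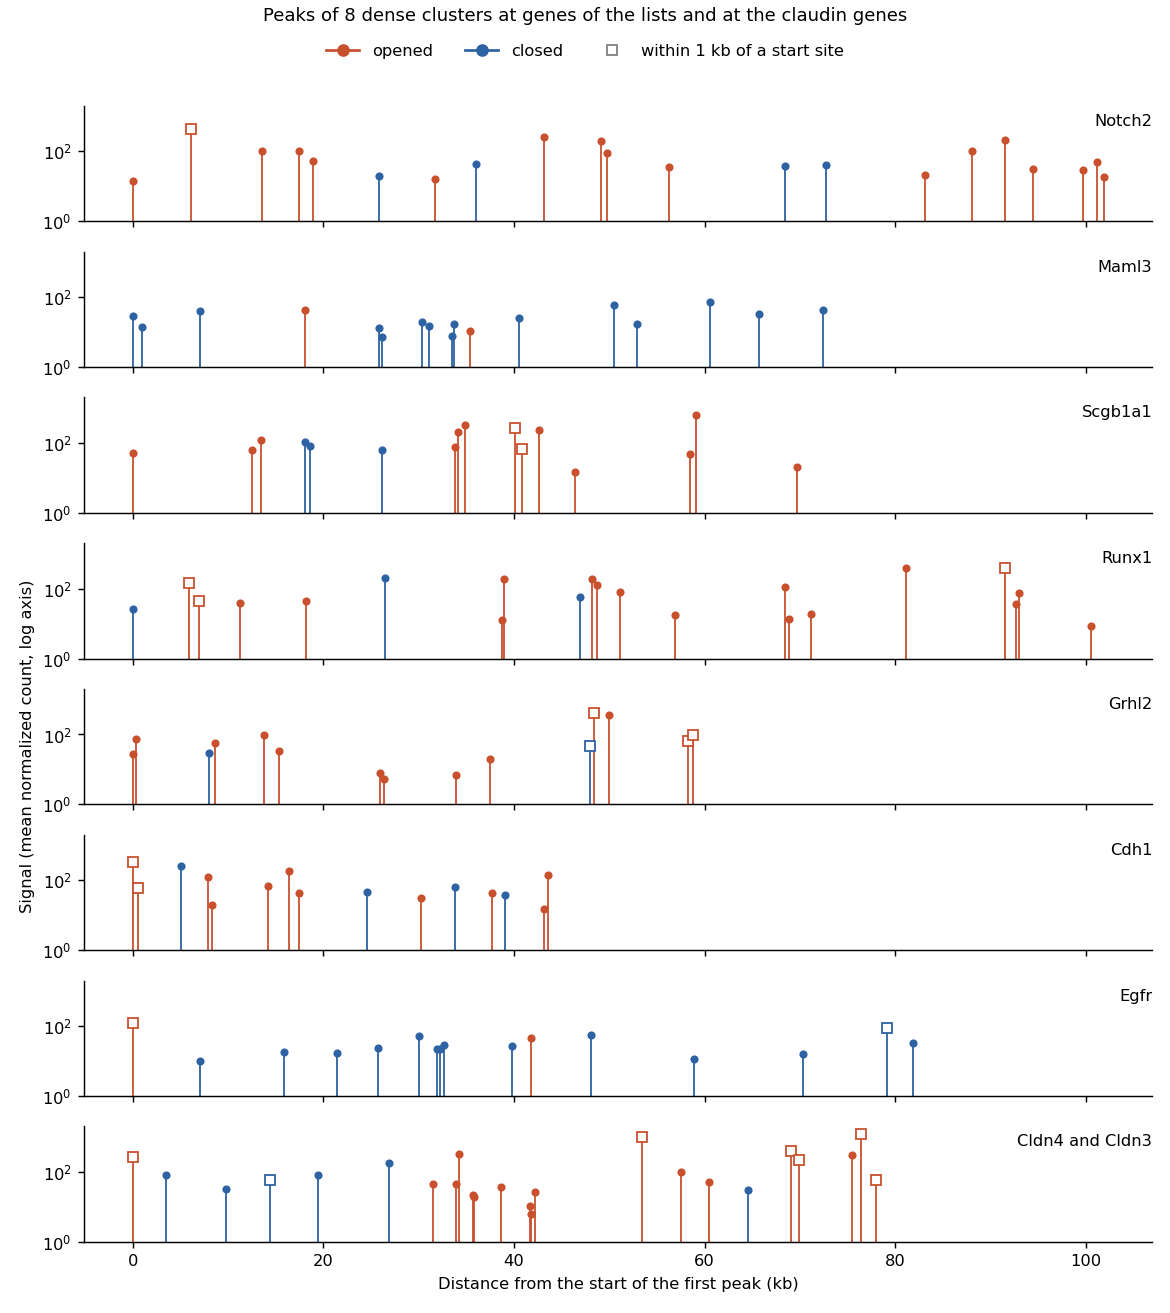
Peaks of 8 dense clusters by distance from the start of the first peak (kb) and signal (mean normalized count, log axis), with opened peaks in red, closed peaks in blue and open squares within 1 kb of a start site. Notch2, Scgb1a1, Runx1 and Grhl2 are mostly red, Maml3 and Egfr mostly blue, and the first opened peak of Egfr lies at its promoter.

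Several clusters outside the naming rule were picked after their values were seen because they hold epithelial or neuronal genes. Krt8 and Krt18, the simple epithelial keratin genes, shared 19 peaks on chromosome 15, of which 17 were opened, with a median signal of 108. Krt7 lay in a cluster of 17 with 9 opened and 8 closed peaks, and its strongest promoter peak, at 261, was opened. The tight junction genes Cldn4 and Cldn3 lay in the same cluster of 24 peaks and differed. The Cldn4 promoter peak (58.6) and 4 peaks around it were closed, while the Cldn3 promoter peak (961) was opened. A cluster 195 to 305 kb from the nearest coding start, that of Sox9, had 12 opened and 8 closed peaks in blocks. Of its 11 peaks nearest to Sox9, 10 were opened, the next 7 were all closed and the farthest 2 were opened. Scn3a, a neuronal sodium channel gene, had 13 closed peaks of 16, its promoter peak among them.

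As a check of the labels, 24 of 33 neuroendocrine and neuronal markers had a closed and 1 an opened promoter peak in the whole list, and 9 of 12 club cell markers had an opened and 0 a closed one. Over all 21911 annotated coding genes, 28.7% had an opened and 8.65% a closed listed promoter peak. None of the 33 neuroendocrine and neuronal markers started in a cluster, and no gene of the AT1, AT2, ciliated, AP-1, REST or Hippo lists did. With 1.07% of all coding genes starting in one, lists of this size would be expected to hold few or none, and nothing is read from these counts. Members nearest to the 23 neuroendocrine transcription factors numbered 29, the 12 opened ones at Nfix and the 17 closed ones at Insm1. Opened promoter peaks in the whole list were found at 9 of 13 AT1, 8 of 12 AT2, 3 of 13 ciliated, 7 of 12 AP-1, 7 of 9 REST, 18 of 28 Hippo and 13 of 29 Notch genes. They were also found at 14 of 31 genes of the epithelial transcription and signalling list and at 4 of the 23 neuroendocrine transcription factors. Closed promoter peaks were found at 0 AT1, 0 AT2, 1 ciliated, 1 AP-1, 0 REST, 2 Hippo and 2 Notch genes. They were also found at 8 genes of the epithelial transcription and signalling list and at 15 of the neuroendocrine transcription factors. Among other cell types, of which the sort gated against leukocytes and endothelial cells but with no negative gate for fibroblasts, leukocyte markers had opened promoter peaks at 2 of 12 genes, endothelial markers at 1 of 10 and fibroblast markers at 2 of 11. Closed ones were at 0, 2 and 1 of them. No marker of these 3 lists was near a member, and the part of such cells in the results was not tested.

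Shares of windows with a motif core were set beside those of the whole list, as a description with no test. An AP-1 core was in 27.7% of the closed and 10.7% of the opened members, against 26.4% and 10.6% of all listed closed and opened peaks. E-box cores were in 22.6% of the closed and 15.2% of the opened members, against 22.6% and 12.02%, and FOX cores in 7.37% and 4.76%, against 9.71% and 6.84%. TEAD cores showed the other order, with 16.9% of opened and 8.93% of closed members, against 18.2% and 8.77%. GRHL cores were in 3.44% of opened and 1.25% of closed members, against 3.46% and 1.61%, and NFI cores in 17.3% and 13.8%, against 18.02% and 13.4%. RUNX cores were in 6.08% of opened and 4.55% of closed members, against 8.34% and 3.59%. NKX2 cores were in 16.2% and 14.6%, against 18.96% and 15.6%. RBPJ cores were in 5.51% and 5.33%, against 5.74% and 4.01%. In these windows of all peaks, opened and closed shares lay closer together in members than in the whole list, except for AP-1 and GRHL. Over 1 kb from a start site FOX was a further exception. There its core was in 5.29% of opened and 7.86% of closed members, against 8.04% and 10.27% of listed peaks. Windows in the gaps held an AP-1 core in 5.33% and an E-box core in 10.9% of cases, and genome windows in 5.996% and 7.198%. The cores differ in length and base content, so their shares cannot be compared with each other.

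**Figure D5:**
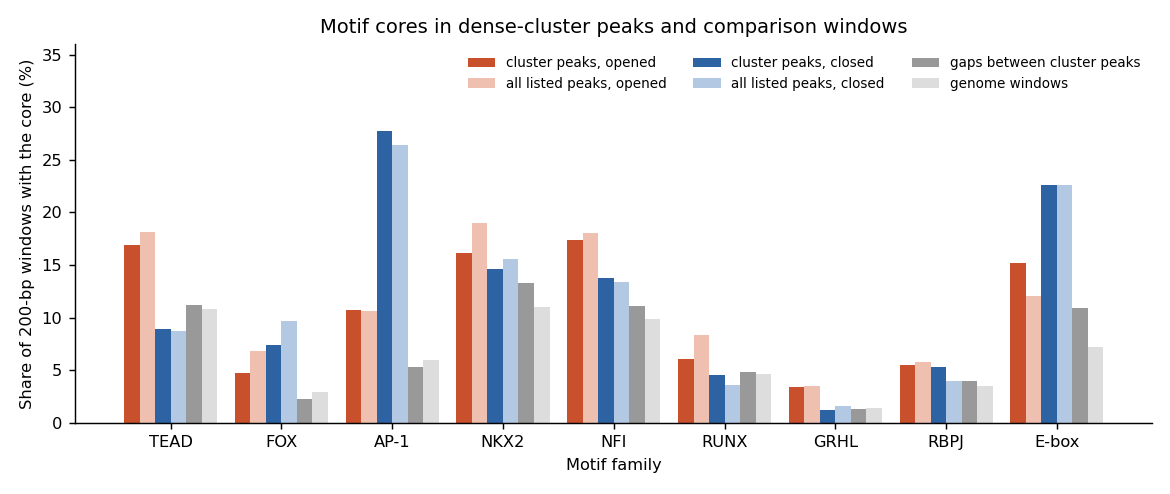
Share of 200-bp windows (%) with at least 1 core of each motif family, for opened and closed dense-cluster peaks, the same kinds among all listed peaks, windows in gaps between cluster peaks and genome windows. AP-1 and E-box bars are tallest for closed peaks (27.7% and 22.6% in the clusters) and the TEAD bar for opened cluster peaks (16.9%) exceeds that for closed ones (8.93%).

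Clusters were unevenly placed. Chromosome 11 had 19 of the 131 clusters and 343 members, which were 6.51% of its listed peaks, followed by chromosome 8 with 11 clusters and 5.66%. Chromosome 13 had 1 cluster, and no cluster lay on X or Y. Listed peaks of chromosome 11 were 71.1% opened, the largest share of any chromosome, and its members 76.7%. Without chromosome 11 the opened share was 72.6% of members and 49.4% of listed peaks. On chromosome 18, where the Celf4 cluster lies, 30.9% of 68 members were opened.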

How the data were processed

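ATAC-seq reads of 8 GFPhigh and 8 GFPneg runs, which are 8 libraries on 2 lanes, underlie the 2 deposited lists. The authors trimmed the reads, aligned them to mm10 with Bowtie2 2.3.4.1, removed duplicates with Samtools, called narrow peaks with MACS2, merged them, counted reads per merged peak and compared the groups with DESeq2 1.28.1. Deposited peaks are those past limits of 0.001 on adjusted p and 1 on absolute log2 fold change. As signal the authors deposited a mean of normalized counts across libraries. Other columns hold the authors' log2 fold change, its standard error, the Wald statistic and the p-values. These results of their comparison were neither used nor printed, beyond checking that 0 rows fell outside the limits. Handling of lanes and of the technical replicate before the comparison is not given in the sources used here. No value per library was available to this report, so depth per library is unknown and no replicate error is given.

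Positions are printed 1-based. Peaks were chained, then classified by their centre with the basic GENCODE annotation of GRCm38 (within 1 kb of a start site, exon, intron, intergenic). Sequence came from RefSeq GRCm38.p6. Windows of 200 bp were taken at the centre of peaks, at the middle of gaps of at least 600 bp, and every 10 kb of the genome. Shares are given with their counts, and Wilson intervals have a level of 95%. No test was run, since direction comes from the comparison that selected the members and peaks are not replicates. Clusters named are the 10 with most peaks, the 8 largest with at least 90% opened and with at least 90% closed peaks (only 3 exist), the 6 with most peaks of the rarer kind, and those with a start site of a list gene. Others are named as chosen later, and a few items that the rule names are not reported here. The members and the 14 gene lists (248 genes) were chosen with earlier results of these data known. Chaining, classes and motif counts were tested on simulated data. Software was matplotlib 3.10.9, scipy 1.17.1, pandas 2.3.3, numpy 2.4.6 and Python 3.11.15.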

Additional observations from a re-analysis of the deposited data

How the results depend on the processing

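The clusters depend strongly on the chaining limits. With a gap of 5 kb 1 cluster of 15 peaks was left, with 100% opened, 73.3% at promoters, 100% above the listed median signal and 0% holding both kinds. A gap of 25 kb gave 755 clusters with 16273 peaks, of which 65.4% were opened and 58.6% above the median signal, and 88.2% of the clusters held both kinds. A minimum of 10 peaks gave 599 clusters with 7736 peaks, 69.97% of them opened, and 71.1% of the clusters held both kinds. With 20 it was 27 clusters and 676 peaks, 60.8% of these above the median signal, and 70.4% of the clusters held both kinds. Merging peaks of 1 list within 100 bp left 93 clusters with 1694 peaks, 70.01% opened and 16.9% at promoters. Leaving out peaks under the median signal left 9 clusters with 147 peaks, 93.2% opened and 39.5% at promoters, and 55.6% of the clusters held both kinds. Among listed peaks at or over that median, 59.0% were opened. Promoter members were 29.8% at a distance of 3 kb and 14.95% with coding start sites only. Per 100 bp of width, 73.6% of members exceeded the listed median. Alternatives chosen after seeing the data were chaining each list alone (44 clusters with 778 opened peaks, 3 with 78 closed peaks), peaks over 1 kb from a start site only (68.9% opened, against 47.1% of such listed peaks), leaving out chromosome 11 and leaving out 1 cluster at a time. The last 2 kept the opened share between 72.6% and 74.3%. Restricting to autosomes could not move any of the 6 results, because no cluster lay on X or Y. Searching whole peaks raised all 9 motif shares past their counting intervals, and peaks over 1 kb from a start site moved none of them past it.

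No paired analysis was possible because the deposited values describe the whole comparison, and for the same reason none of the alternatives leaves out a replicate. Depth per library is unknown, and sites that did not pass the authors' limits were not analysed here.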
